A study of Mus musculus with 12 samples.

Results

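Hepatic genes of glucose production and glucose use were followed in the livers of db/db mice that received molecular hydrogen (H2). The 9 genes were taken by the RefSeq record that the array design gives for their probes, 5 gluconeogenic (Pck1, G6pc, Fbp1, Pcx and Slc37a4) and 4 of glucose use (Gckr, Pklr, Pfkfb1 and Slc2a2). Each of the 9 genes was represented by 1 probe with 1 spot, out of 39429 probes and 20283 gene symbols on the array, and all 9 probes gave signal above background in each channel of the 12 arrays. All mice, controls included, were male db/db mice labelled 8 weeks old, a line without a functional leptin receptor that is obese and diabetic. Treated mice were gavaged each day for 1, 3 or 7 days with MgH2, a solid that releases H2 in water (0.9 mg/kg by the labels, while the general methods name higher doses), or H2-water at 0.8 mM to drink for 14 days. Per the study's methods the gavage controls were given Mg(OH)2 and the drinking controls degassed water. Each array set liver RNA pooled from 3 treated mice (labelled with Cy5) against RNA pooled from 3 control mice (Cy3), with 3 arrays per time and no dye swap.

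Gluconeogenesis is the pathway by which the liver makes glucose from lactate, amino acids and glycerol. Fasting hormones and cAMP raise its enzymes and insulin lowers them, and in db/db mice the pathway runs despite high blood glucose. Glycolysis runs the opposite way, and its liver genes, Pklr above all, are raised by insulin and by the glucose-sensing factor ChREBP after feeding, so that Pck1 and Pklr are the textbook pair that moves in opposite directions between fasting and feeding.

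The promoters of the genes on which the results turn are shown so that the start-site region of each can be read beside its values. They are the 250 bases before the RefSeq start site (mouse build GRCm38.p6, + strand, 5′ to 3′), and capitals mark motif matches found by script: in Pck1 the 5-base core of the cAMP response element (TGACG, here on the reverse strand as CGTCA, positions -90 to -86 from the start site), in G6pc and Pklr the TATA box (TATAAA, -29 to -24 and -31 to -26). For Pklr the downstream of its RefSeq start sites is shown.
Pck1, chr2:173152823-173153072: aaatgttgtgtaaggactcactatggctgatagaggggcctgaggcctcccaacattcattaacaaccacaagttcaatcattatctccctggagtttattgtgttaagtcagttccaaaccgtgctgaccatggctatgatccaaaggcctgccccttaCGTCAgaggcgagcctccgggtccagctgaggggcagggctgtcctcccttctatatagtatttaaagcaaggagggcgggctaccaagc
G6pc, chr11:101367466-101367715: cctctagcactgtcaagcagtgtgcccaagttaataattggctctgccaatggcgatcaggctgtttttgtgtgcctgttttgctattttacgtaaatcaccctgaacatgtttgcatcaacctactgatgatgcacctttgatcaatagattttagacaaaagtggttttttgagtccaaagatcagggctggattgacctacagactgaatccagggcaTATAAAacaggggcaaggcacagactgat
Pklr, chr3:89136373-89136622: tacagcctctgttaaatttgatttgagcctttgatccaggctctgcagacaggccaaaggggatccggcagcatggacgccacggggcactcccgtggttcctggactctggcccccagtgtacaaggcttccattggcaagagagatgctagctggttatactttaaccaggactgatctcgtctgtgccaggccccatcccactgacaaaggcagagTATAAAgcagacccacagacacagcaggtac
Over all 32851 RefSeq promoters in windows of 300 bases (250 before and 50 after the start site, both strands searched), TGACG was found in 20.8% and TATAAA in 13.6%. Among the 9 genes TGACG was found for Pck1 and Slc37a4, TATAAA for G6pc, Pfkfb1, Pklr and Slc37a4, and the E-box CACGTG (7.15% of all promoters) for Pcx. The full element TGACGTCA, which contains the core, and the FOXO motif GTAAACA were in the windows of none of the 9 genes, against 1.79% and 3.65% of all promoters. A match describes letters in a window and not a bound site.

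Before the results, properties of the arrays have to be stated. The 14-day arrays lay on a slide of their own and were read with another software version than the gavage arrays, so that agent, time and slide cannot be told apart between 7 and 14 days. Control pools with the same replicate number resembled each other across the gavage days: their Cy3 signals differed by a median of 0.055 to 0.075 on the log2 scale in 9 pairs, against 0.097 to 0.14 in the 18 pairs of different number. For Pklr the control levels (log2 signal relative to the channel's 75th percentile) were 1.70, 2.20 and 1.89 on the 1-day arrays, 1.70, 2.22 and 1.92 on the 3-day arrays and 1.73, 2.19 and 1.95 on the 7-day arrays. The labels name a control for each day, and whether the control RNA was the same was not stated. The comparisons at 1, 3 and 7 days are therefore read as possibly sharing controls and not as independent of each other. The leptin receptor probe was 2.56 higher on the log2 scale in the 14-day control pools than in the gavage control pools (limma adjusted p = 3.34e-09), although the labels give the same strain and age. These levels too are relative to the 75th percentile. In this comparison 78.1% of 18682 probes were called and 27.3% were higher, and slide and software version differed as well.

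Pck1 (chr2:173153073-173159274) encodes the cytosolic phosphoenolpyruvate carboxykinase, the enzyme that commits oxaloacetate to glucose. Its log2 ratio of treated over control was -0.25, -0.08 and -0.17 on the 3 arrays at 1 day, 0.25, 0.45 and 0.21 at 3 days, 0.29, 0.29 and 0.36 at 7 days, and -0.29, -0.67 and -0.22 at 14 days. The ratio was below 0 on 6 of 6 arrays at 1 and 14 days and above 0 on 6 of 6 arrays at 3 and 7 days. These sets of times were formed after the signs were seen, and the gavage arrays possibly share controls. The share of all probes split in this way is not given. The same limits apply to the sets of times read below for Pklr, Mlxipl and the balance of the 2 groups of genes. Pck1 was 1.24-fold higher in the treated pools at 3 days (log2 ratio 0.31 ± 0.079, SE, n = 3, limma adjusted p = 0.021) and 1.24-fold higher at 7 days (0.31 ± 0.079, n = 3, limma adjusted p = 0.015). It was 1.31-fold lower after 14 days of H2-water (-0.39 ± 0.080, n = 3, limma adjusted p = 0.0161), and at 1 day the ratio of -0.17 ± 0.079 did not pass (limma adjusted p = 0.207). The 7-day call was lost without any of its 3 arrays, and the 3-day and 14-day calls were kept without replicate 3 (adjusted p = 0.0481 and 0.0367). Without replicate 1 or 2 the adjusted p at 3 days was 0.0566 and 0.139, without replicates 1, 2 and 3 at 7 days it was 0.0557, 0.0541 and 0.0856, and without replicate 1 or 2 at 14 days it was 0.0564 and 0.0736, while the sign was kept in each case. With arrays centred on the median of all probes, Pck1 did not pass at 3, 7 or 14 days either (limma adjusted p = 0.0685, 0.151 and 0.0835).

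**Figure D1:**
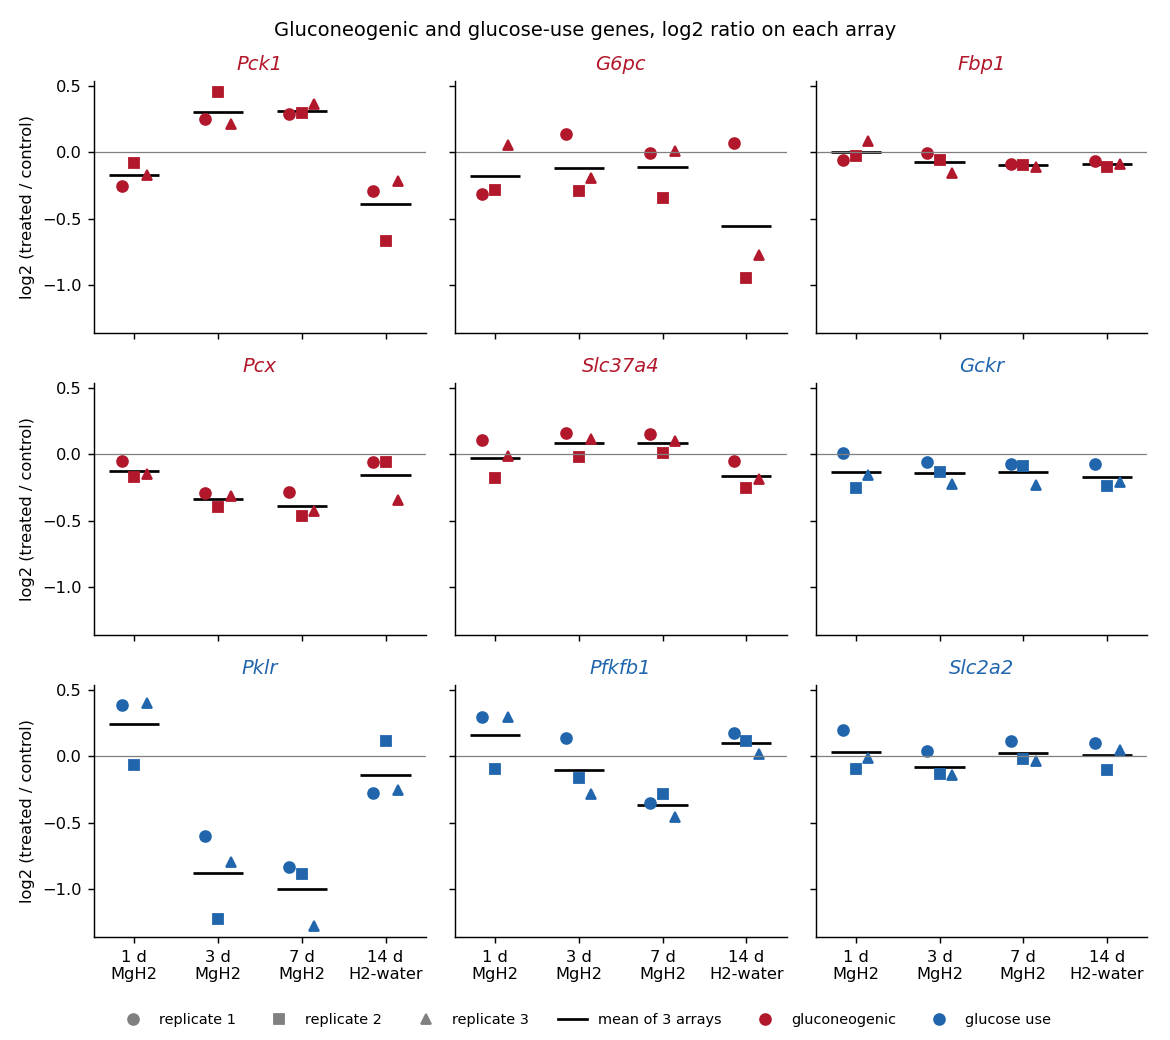
Log2 ratio of treated over control for each of the 9 genes (vertical axis) at 1, 3 and 7 days of MgH2 and 14 days of H2-water (horizontal axis). Points are single arrays, with the replicate number given by the shape, bars are means of 3 arrays, red marks gluconeogenic and blue glucose-use genes. Pck1 lies above 0 on the 3-day and 7-day arrays and below 0 on the 1-day and 14-day arrays, while Pklr lies between -1.27 and -0.60 at 3 and 7 days.

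G6pc (now G6pc1, chr11:101367716-101377903) encodes the catalytic subunit of glucose-6-phosphatase, which releases free glucose in the last step of the pathway. Its log2 ratios were -0.31, -0.28 and 0.05 at 1 day, 0.14, -0.29 and -0.19 at 3 days, -0.01, -0.35 and 0.01 at 7 days and 0.07, -0.95 and -0.78 at 14 days. Replicates of a time thus lay on both sides of 0 throughout. No mean passed the test, and the widest change was the 14-day mean of -0.55 (95% confidence interval -0.94 to -0.17, limma adjusted p = 0.0784), which came from replicates 2 and 3 and passed without replicate 1 (-0.86, adjusted p = 0.0127). At 7 days the interval of the log2 ratio was -0.49 to 0.26, so that a rise of the size seen for Pck1 lay outside it but a fall of that size did not. The Slc37a4 gene (chr9:44396946-44402966) encodes the glucose-6-phosphate transporter that feeds this enzyme, and its ratios stayed between -0.25 and 0.16 on the 12 arrays without a call at any time.

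Pcx (chr19:4510472-4621752), the mitochondrial pyruvate carboxylase that makes oxaloacetate from pyruvate, was lower where Pck1 was higher, at 3 and 7 days of MgH2. Its log2 ratio was -0.05, -0.17 and -0.15 at 1 day, -0.29, -0.40 and -0.31 at 3 days, -0.28, -0.46 and -0.43 at 7 days and -0.06, -0.06 and -0.35 at 14 days. The ratio was below 0 on 12 of 12 arrays, and the 3-day and 7-day arrays did not overlap with the 1-day arrays. Pcx fell by 0.33 on the log2 scale at 3 days (SE 0.060, n = 3, limma adjusted p = 0.00431) and by 0.39 at 7 days (SE 0.060, n = 3, limma adjusted p = 0.00131), and it was still called without any replicate of its time. Fbp1 (chr13:62864753-62888298), the fructose-1,6-bisphosphatase of the pathway, varied least of the 9 genes, from -0.16 to 0.08 over the arrays, and was not called at any time.

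Pklr (chr3:89136122-89146815) encodes the liver and red cell pyruvate kinase of the last glycolytic step, and it showed the widest change of the 9 genes. Its log2 ratio was 0.39, -0.07 and 0.41 at 1 day, -0.60, -1.22 and -0.80 at 3 days, -0.83, -0.89 and -1.27 at 7 days and -0.27, 0.12 and -0.26 at 14 days. The 3-day and 7-day arrays all lay below the lowest array of the other times. Pklr was 1.84-fold lower at 3 days (log2 ratio -0.88 ± 0.14, SE, n = 3, limma adjusted p = 0.00239) and 2.00-fold lower at 7 days (-0.998 ± 0.138, n = 3, limma adjusted p = 0.000842), and leaving out any replicate of these times kept both calls. At 1 day (0.24 ± 0.14) and 14 days (-0.14 ± 0.14) it was not called (limma adjusted p = 0.302 and 0.61). In such whole-liver RNA, fewer cells of a type and less RNA per cell cannot be told apart.

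The levels behind the ratio show where the Pklr change lay. The treated pools read 2.10, 2.14 and 2.30 at 1 day, 1.11, 1.00 and 1.12 at 3 days and 0.90, 1.32 and 0.68 at 7 days, while the control pools stayed between 1.70 and 2.22. With the Cy5 channel alone, without the controls, Pklr differed from 1 day by -1.099 at 3 days and by -1.21 at 7 days (3.98% and 19.5% of probes were called, limma adjusted p = 0.0147 and 0.00244). At 14 days both pools were low, with 1.00, 0.99 and 0.94 in the controls and 0.72, 1.11 and 0.68 in the treated pools. The 14-day controls differed from the gavage controls in Pklr by -0.97 with the percentile scaling and by -0.56 with signals divided by their total. By the percentile scaling 7 of the 9 genes were called lower in the 14-day than in the gavage controls (50.8% of 18682 probes were, 27.3% were higher and 78.1% were called either way), but the sign for Pck1 and Slc37a4 turned when signals were divided by their total or quantile normalized, and that for Pfkfb1 with the total.

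**Figure D2:**
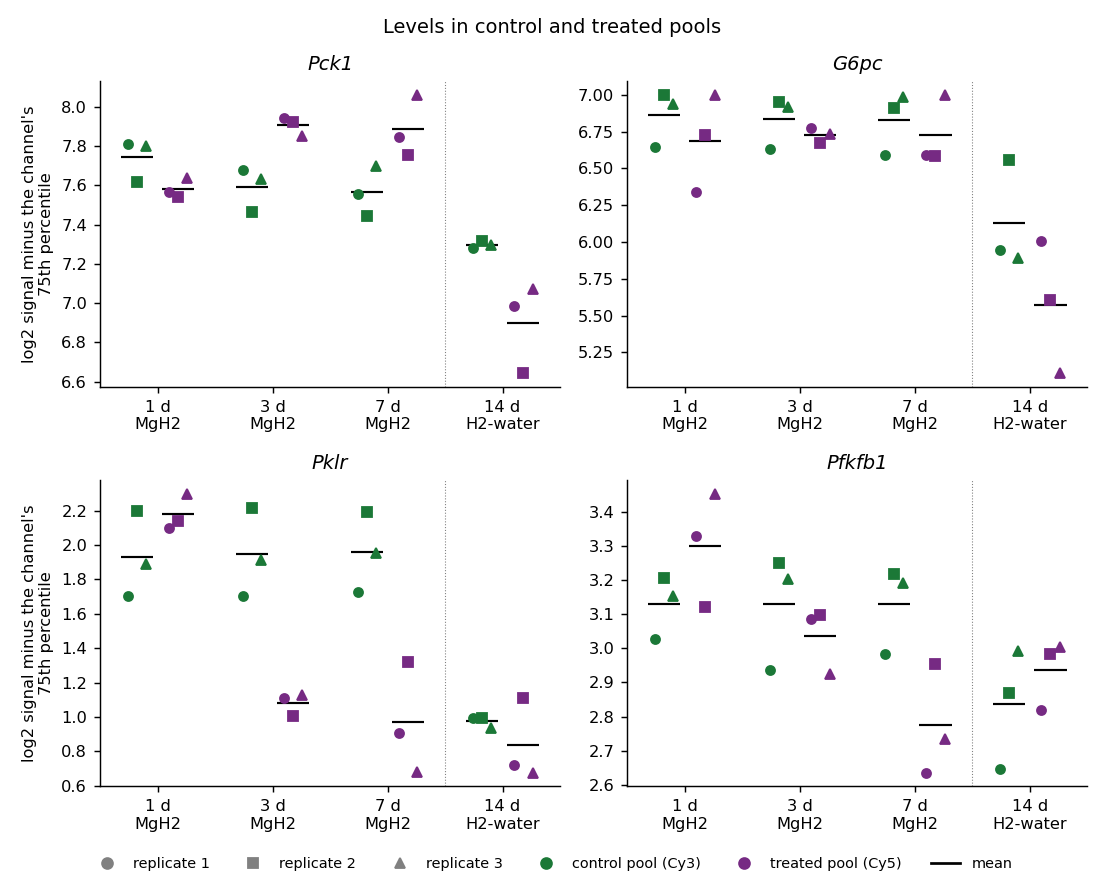
Level of Pck1, G6pc, Pklr and Pfkfb1 in control pools (Cy3, green) and treated pools (Cy5, purple), as log2 signal minus the channel's 75th percentile (vertical axis), by time and agent (horizontal axis). Points are single pools with the shape giving the replicate number, and bars are means of 3. The green Pklr points of a shape hold their place from 1 to 7 days while the purple points are lower at 3 and 7 days than at 1 day. The dotted line separates the 14-day arrays, which lay on another slide.

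Pfkfb1 (chrX:150587445-150643878) encodes the liver form of the bifunctional enzyme that sets fructose-2,6-bisphosphate, the signal that turns glycolysis on and gluconeogenesis off. Its log2 ratio was 0.29, -0.09 and 0.29 at 1 day, 0.14, -0.16 and -0.29 at 3 days, -0.35, -0.28 and -0.46 at 7 days and 0.18, 0.11 and 0.02 at 14 days. It lay below 0 on every 7-day array, and the 7-day arrays did not overlap with the 1-day or 14-day arrays. Pfkfb1 was 1.29-fold lower at 7 days (-0.36 ± 0.090, SE, n = 3, limma adjusted p = 0.0136) and was not called at 3 days (-0.10 ± 0.090, limma adjusted p = 0.446). Without replicate 1 or 3 of the 7-day arrays its adjusted p was 0.0575 and 0.0905.

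Gckr (chr5:31297266-31327302) encodes the glucokinase regulatory protein, which binds and inhibits glucokinase. Slc2a2 (chr3:28697903-28728361) encodes the glucose transporter GLUT2 of the hepatocyte surface. Gckr was below 0 on 11 of 12 arrays with group means from -0.17 to -0.13, none of them called. With the replicate number as a block in the fit, Gckr passed at 3 and 7 days (-0.14 and -0.13, limma adjusted p = 0.0327 and 0.0317). So did 30.6% and 36.8% of all probes, against 23.4% and 29.5% without the block. The block takes out spread that same-numbered arrays share, also that of controls possibly shared. The SE of Gckr at 3 days was 0.040 with the block and 0.058 without it. Slc2a2 ratios lay between -0.14 and 0.20 with means no farther from 0 than -0.08, and it was not called at any time. Because control RNA was always in Cy3, a dye effect of a probe cannot be told apart from a small change of the same sign at every time. This holds for Pcx, Gckr, Fbp1 and G6pc here, whose means were below 0 at every time. It also holds for genes below such as Mdh1, Ppp1r3b, Cebpa, Pfkl, Nr3c1 and Mpc1. The differences between times, tested further on, do not carry such an effect where it is equal on the arrays compared. Whether the dye effect was equal was not tested, as there was no dye swap. The H2-water arrays differed from the gavage arrays in slide and software version.

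Counted over the 9 genes, none was called at 1 day, where 9.39% of 19669 probes tested were called by limma (5.15% higher and 4.24% lower), while 1 gene (Gckr) and 26.1% of probes were below an unadjusted p of 0.05. At 3 days 3 of the 9 were called (Pck1 higher, Pcx and Pklr lower), against 23.4% of 19426 probes, and at 7 days 4 of the 9 (Pck1 higher, Pcx, Pklr and Pfkfb1 lower), against 29.5% of 19468 probes. At 14 days 1 of the 9 was called (Pck1, lower), against 8.84% of 20428 probes (4.92% higher and 3.91% lower). Below an unadjusted p of 0.05 were 4, 6 and 6 of the 9 at 3, 7 and 14 days (36.8%, 41.3% and 24.4% of probes). On all 3 arrays of a time 2, 5, 7 and 6 of the 9 genes had the same sign at 1, 3, 7 and 14 days, against 44.4%, 53%, 58.4% and 54% of probes. Nothing particular to the 9 genes is read from these counts. The median log2 ratio of the 5 gluconeogenic genes at 14 days was -0.16, while the median over all probes tested was -0.0049. Of their means 5 of 5 were below 0 and 5 of 5 at an unadjusted p below 0.05 (24.4% of probes were). The share of probes below 0 is not given. Fbp1 was near that limit (limma unadjusted p = 0.0473), and its highest log2 ratio over the alternatives was 0.0585. G6pc was above 0 on 1 of the 3 arrays. Nothing particular to these 5 genes is read from this either. Of the 9 genes, 2 were called at 7 days without replicate 1 or replicate 3, and 0 at 14 days without replicate 2. The share of all probes called in these smaller fits is not given, and nothing is read from these counts.

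**Figure D3:**
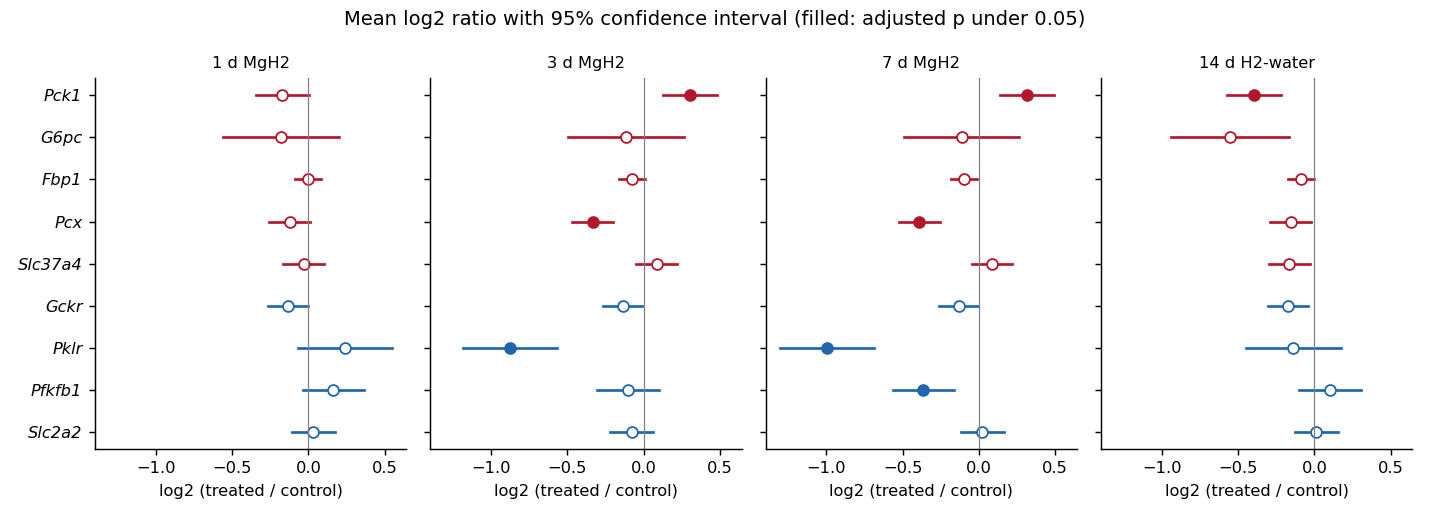
Mean log2 ratio of treated over control (horizontal axis) with its 95% confidence interval from the fit over all probes, for the 9 genes (vertical axis) at each time. Filled points have an adjusted p under 0.05: Pck1, Pcx and Pklr at 3 days, these and Pfkfb1 at 7 days, and Pck1 at 14 days.

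A balance of the 2 groups of genes was read on each array as the mean log2 ratio of the 5 gluconeogenic genes minus that of the 4 glucose-use genes. Any scaling of a whole array cancels in this difference. It was -0.34, -0.02 and -0.17 at 1 day, 0.17, 0.35 and 0.29 at 3 days, 0.30, 0.20 and 0.49 at 7 days and -0.06, -0.38 and -0.22 at 14 days. The balance was thus above 0 on 6 of 6 arrays at 3 and 7 days and below 0 on 6 of 6 arrays at 1 and 14 days. Its sides are those of the gene lists, and Gckr, which encodes an inhibitor of glucokinase, counts as glucose use. The sign of the balance is therefore not a direction of glucose flux, which was not measured. The 2 sides contributed differently. At 3 and 7 days the gluconeogenic mean was near 0 (-0.03 ± 0.066 and -0.04 ± 0.070, SD, n = 3) and the glucose-use mean was low (-0.30 ± 0.16 and -0.37 ± 0.12), whereas at 14 days the gluconeogenic mean was low (-0.27 ± 0.17) and the glucose-use mean near 0 (-0.05 ± 0.045). Without Pklr the mean balance was 0.08 at 3 days and 0.12 at 7 days in place of 0.27 and 0.33, so that most of its size at these times came from Pklr. No test was made on the balance, since the genes were chosen with earlier results known.

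**Figure D4:**
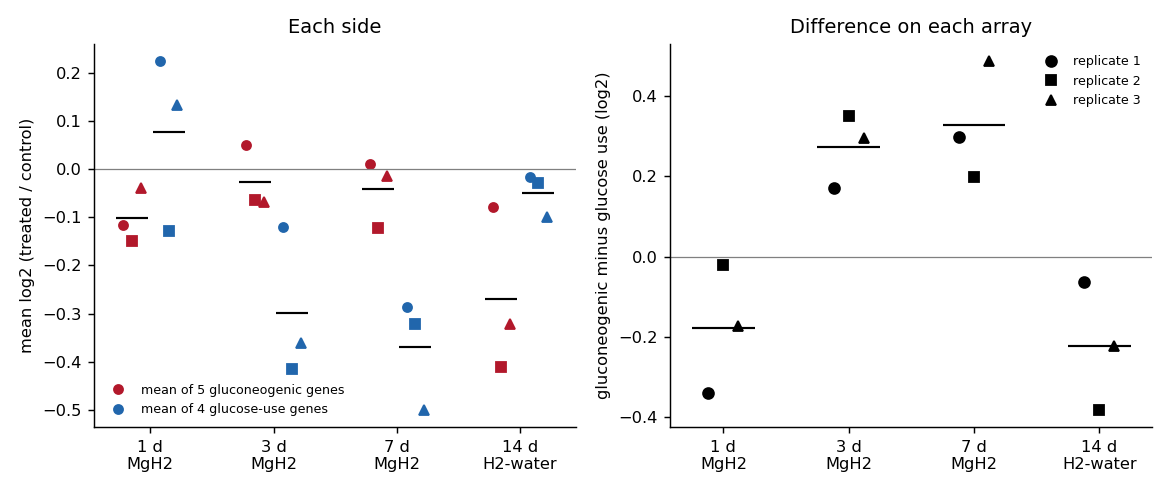
Left, mean log2 ratio (vertical axis) of the 5 gluconeogenic genes (red) and of the 4 glucose-use genes (blue) on each array, by time and agent. Right, the difference of the 2 means on each array, from -0.34 to -0.02 at 1 day, 0.17 to 0.49 at 3 and 7 days and -0.38 to -0.06 at 14 days, with bars for the means of 3 arrays.

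The difference between times was then tested for each gene in the same fit. From 1 to 7 days, Pck1 rose by 0.48 on the log2 scale (SE 0.11, limma adjusted p = 0.0332), and Pklr and Pfkfb1 fell by 1.24 and 0.53 (SE 0.20 and 0.13, limma adjusted p = 0.0132 and 0.0367), so that 3 of 9 genes were called against 6.95% of 19166 probes (3.26% higher and 3.69% lower). An unadjusted p below 0.05 was reached by 4 of the 9 genes and 25.2% of probes. Pcx fell by 0.27 with an adjusted p of 0.0818, and of 0.0442 with the replicate block, which called 13.4% of probes. In 5 of the 9 genes the 3 arrays at 7 days did not overlap with those at 1 day, as in 28.5% of probes. Leaving out each of the 6 arrays in turn kept Pklr (adjusted p 0.0251 to 0.0474) but lost Pck1 every time (0.0626 to 0.102) and Pfkfb1 in 5 of 6 cases (0.0371 to 0.117). With no filter on dim probes none of the 3 passed (Pklr adjusted p = 0.0502), and with the Cy5 channel alone Pck1 did not pass (0.31, limma adjusted p = 0.0703).

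From 1 to 3 days none of the 9 genes was called, and 0.0208% of 19222 probes were. Pklr had the widest difference (-1.12 ± 0.20, SE, limma adjusted p = 0.082, and 0.0538 with the replicate block), and 3 genes were below an unadjusted p of 0.05 (15.4% of probes were). On the slide that held the 1-day arrays and 1 of the 3-day arrays, the difference from 1 to 3 days was -0.85 for Pklr and 0.42 for Pck1. In 3 of the 9 genes the arrays of the 2 times did not overlap, as in 19.2% of probes. Between 3 and 7 days none of the 9 genes and 0% of 19100 probes were called by limma, with none of the 9 and 4.73% of probes below an unadjusted p of 0.05. The largest difference was that of Pfkfb1 (-0.26, 95% confidence interval -0.55 to 0.02), and none of the 9 genes had groups without overlap (8.23% of probes did).

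The 14-day ratios differed from the 7-day ratios in Pck1, lower by 0.71 (-0.71 ± 0.11, limma adjusted p = 0.0133), and in Pklr, higher by 0.86 (SE 0.19, limma adjusted p = 0.0326). These 2 of 9 genes stand against 6.61% of 18688 probes (3.46% higher and 3.15% lower). Below an unadjusted p of 0.05 were 5 of the 9 and 24.8% of probes, and 4 of the 9 genes had no overlap between the groups, against 32.4% of probes. Pfkfb1 was higher by 0.47 at 14 days, with an adjusted p of 0.0562. Without any of the 6 arrays Pklr did not pass (adjusted p 0.0501 to 0.116), and without replicate 3 of the 7-day arrays Pck1 did not either (0.0604). Agent, duration and slide all differed here.

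Genes around the pathway were read from 6 lists. Of 23 tested regulators of gluconeogenesis, 5 were higher and 2 lower at 3 days, and 5 were higher and 3 lower at 7 days (12.3% and 15.3% of all probes were higher, 11.1% and 14.3% lower). Ppargc1a, the coactivator PGC-1α that raises gluconeogenic and oxidative genes, had log2 ratios of 0.02, 0.28 and -0.08 at 1 day, 0.42, 0.89 and 0.43 at 3 days, 0.98, 0.60 and 0.74 at 7 days and 0.46, -0.58 and 0.09 at 14 days. It was above 0 on all 3-day and 7-day arrays (means 0.58 and 0.77, limma adjusted p = 0.033 and 0.00768), and its other probe gave 0.77 and 1.30. Crtc2, the coactivator of CREB, rose by 0.21 and 0.38 at these times, Irs1 by 0.48 and 0.37, and Klf15, a fasting-induced factor of amino acid use, by 0.40 and 0.36. Among those lower at 7 days, Cebpa, a liver transcription factor that acts on Pck1, fell by 0.50, the nuclear receptor Nr0b2 (SHP), which represses gluconeogenic genes, by 0.55, and the glucocorticoid receptor Nr3c1 by 0.28. Foxo1, the insulin-sensitive activator of G6pc and Pck1, was not called (0.07 at 3 days and 0.10 at 7 days, limma adjusted p = 0.718 and 0.558). At 1 day 3 regulators were higher (Irs1 0.41, Klf15 0.34 and Crebbp 0.24) and 1 lower (Cebpa -0.30), and at 14 days 1 was higher and 3 were lower (Cebpa -0.23, Hnf4a -0.21 and Nr3c1 -0.20). Of all probes 5.15% were higher and 4.24% lower at 1 day, and 4.92% and 3.91% at 14 days.

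In the list of glucose-sensing and pentose phosphate genes, 5 of 10 were lower at 3 days, and 7 of 10 were lower and 1 higher at 7 days, where 11.1% of all probes were lower at 3 days and 14.3% lower and 15.3% higher at 7 days. Its median log2 ratio was -0.28 and -0.33, where the median of all probes tested was 0.0022 and 0.0059. Mlxipl encodes ChREBP itself, the factor that raises Pklr in response to glucose. It read 0.47, 0.20 and 0.31 at 1 day, -0.38, -0.26 and -0.34 at 3 days, -0.44, -0.16 and -0.66 at 7 days and 0.38, 0.44 and 0.37 at 14 days. Each of the 4 means passed, higher at 1 and 14 days (0.33 and 0.40, limma adjusted p = 0.0325 and 0.0163) and lower at 3 and 7 days (-0.33 and -0.42, limma adjusted p = 0.0166 and 0.00393), and the arrays of the 2 directions did not overlap. The pentose phosphate enzymes Tkt (-0.46 and -0.44), G6pdx (-0.44 and -0.34), Pgd (-0.33 and -0.33) and Taldo1 (-0.26 and -0.34) were lower at 3 and 7 days. Txnip, which is raised by glucose through ChREBP, was higher at 7 days (0.39, limma adjusted p = 0.0423), so that it and Mlxipl were called in opposite directions. Mlxipl and Taldo1 were the members called at 1 day and Mlxipl the member called at 14 days, where 9.39% and 8.84% of all probes were called.

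**Figure D5:**
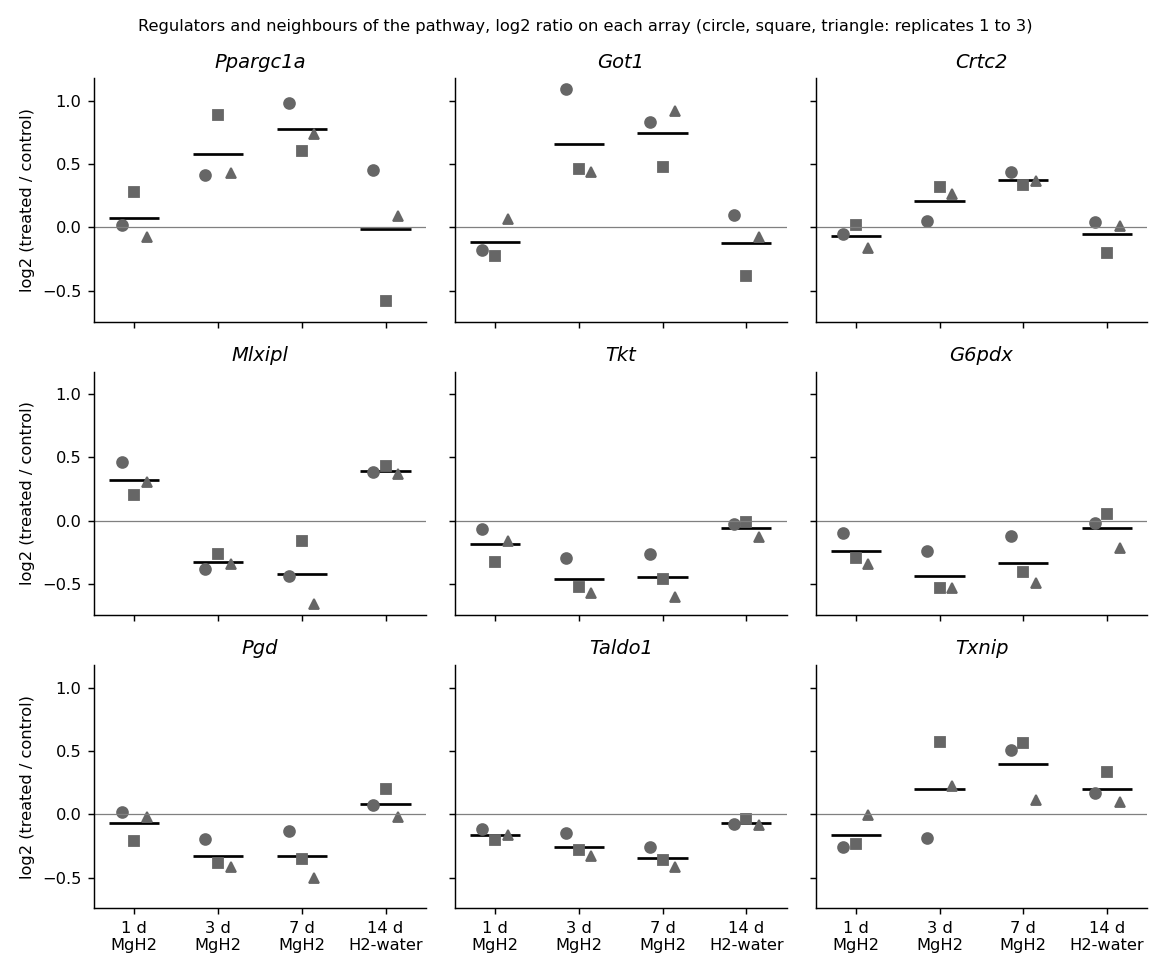
Log2 ratio of treated over control (vertical axis) by time and agent (horizontal axis) for regulators and neighbouring enzymes of the pathway. Points are single arrays and bars means of 3. Ppargc1a and Got1 lie above 0 at 3 and 7 days, Tkt, G6pdx, Pgd and Taldo1 below, and Mlxipl lies above 0 at 1 and 14 days and below 0 at 3 and 7 days.

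Of 18 tested genes of gluconeogenic substrates, 4 were higher and 5 lower at 3 days, 5 higher and 5 lower at 7 days, 1 higher and 2 lower at 1 day and 2 higher at 14 days. Of all probes 12.3% and 11.1% were higher and lower at 3 days, 15.3% and 14.3% at 7 days, 5.15% and 4.24% at 1 day and 4.92% and 3.91% at 14 days. The cytosolic aspartate aminotransferase Got1, which feeds cytosolic oxaloacetate, rose by 0.66 at 3 days and 0.74 at 7 days (limma adjusted p = 0.00845 and 0.00344). The mitochondrial pyruvate carrier subunit Mpc1 rose by 0.29, 0.39 and 0.40 at 3, 7 and 14 days, and the cytosolic malate dehydrogenase Mdh1 by 0.22, 0.25, 0.20 and 0.22 at 1, 3, 7 and 14 days. G6pc3, the ubiquitous relative of G6pc, was lower at 1, 3 and 7 days (-0.24, -0.24 and -0.34), and the glycerol phosphate dehydrogenase Gpd1 was lower at 3 and 7 days (-0.28 and -0.28). The mitochondrial carboxykinase Pck2 was not above background on any array.

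Of the 19 glycolytic genes tested at 1, 3 and 7 days, 1, 3 and 2 were lower and 0, 0 and 2 higher, and of 17 tested at 14 days 2 were lower. For all lists of this paragraph, 4.24%, 11.1%, 14.3% and 3.91% of all probes were lower at the 4 times. Higher were 5.15%, 12.3%, 15.3% and 4.92% of all probes. The liver phosphofructokinase Pfkl was lower at 3, 7 and 14 days (-0.22, -0.28 and -0.25) and Hk3 at 3 and 7 days (-0.59 and -0.68), whereas Pfkfb2, the heart form of the Pfkfb1 enzyme, was higher at 7 days (0.58). In the glycogen list Ppp1r3b, a subunit that directs protein phosphatase to glycogen, was higher at all 4 times (0.65, 0.55, 0.61 and 0.50), with 2 of 12 tested genes higher at 1 day, 1 higher and 1 lower (Pygl, the liver glycogen phosphorylase, -0.23 and -0.26) of 13 at 3 and 7 days and 1 of 12 higher at 14 days. Of the pyruvate dehydrogenase genes, Pdhb was lower at 3 and 7 days (-0.29 and -0.30), as 1 of 7 tested, and none was called at 1 or 14 days (of 8 and 7).

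Genes whose log2 ratio was most like that of a member over the 12 arrays were Wac and Aifm2 for Pck1 (Pearson coefficient 0.963 and 0.962), Macir and Ywhaz for G6pc (0.904 and 0.878) and Cdk11b and 2200002D01Rik for Pklr (0.966 and 0.955). They were the highest of 11563 candidate genes. The arrays share slides and possibly controls, so these values are a description.

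Markers of cell types moved with some of these results. Of all probes 12.3% were higher and 11.1% lower at 3 days, and 15.3% and 14.3% at 7 days. Of 8 hepatocyte markers, 2 were higher at 3 days (Alb 0.25 and Cyp2e1 0.22), and 3 were higher and 1 lower at 7 days (Alb 0.41, Cyp2e1 0.28, Ttr 0.22 and Apob -0.34). Their summed level was 2311 to 2625 times the 75th percentile in the gavage control pools and 2654 to 3183 in the 3-day and 7-day treated pools, and 2545 to 2639 in the 1-day treated pools. Of 5 Kupffer cell and leukocyte markers, Clec4f was lower at 3 and 7 days (-0.36 and -0.45) and Ptprc at 1 and 7 days (-0.59 and -0.70), while Cd3e was higher at 3 days (0.11), and the summed level was 10.03 to 12.05 in the gavage controls and 8.19 to 9.46 in the 3-day and 7-day treated pools. Of the stellate markers Lrat and Col1a1 were lower at both times (-0.47 and -0.41 at 3 days), with a summed level of 1.52 to 1.96 in the controls and 1.19 to 1.49 in these treated pools. The red cell marker Alas2 was lower at 3, 7 and 14 days (-0.56, -0.70 and -0.41). The globin markers of the same list, Hba-a1 (-0.02, -0.29 and -0.08) and Hbb-bt (0.12, -0.23 and -0.03), were not called at these times. At 14 days the leptin receptor probe Lepr (-0.45), the endothelial marker Kdr (-0.19) and the T cell marker Cd3e (-0.16) were lower (limma adjusted p = 0.000324, 0.0399 and 0.0194), as were 3.91% of all probes. The other endothelial markers Pecam1, Stab2 and Cdh5 were then at 0.06, 0.15 and 0.04, none called. The leukocyte markers Adgre1, Clec4f, Ptprc and Lyz2 were at 0.27, 0.03, 0.02 and 0.09, also not called. Stab2 was higher at 3 days (0.22, limma adjusted p = 0.0375). Among the adipocyte markers Cfd was lower at 7 days (-2.42), and Adipoq, Plin1 and Lep were not above background on all arrays. The part of these markers in the results of Pck1, Pcx, Pklr and Pfkfb1 was not tested.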

How the data were processed

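Liver RNA was measured on 12 two-colour Agilent arrays, 3 per time. The intensity values (processed signals) were background-corrected and dye-normalized (linear and lowess) by the authors' Feature Extraction, listed as version 10.10.1 in the submitters' processing notes, with 10.7.3.1 on the 14-day arrays and 10.10.1.1 on the others per the file headers. The deposited log2 value table equalled the software's log ratio within 1.4e-06 and served as an alternative, with column medians of 0. No alignment was involved. Raw median intensities were deposited as well.

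The log2 ratio of Cy5 over Cy3 processed intensity was taken per spot, without control spots and spots marked non-uniform or outlying, and averaged per probe. Probes were named by RefSeq accession (67.9% of 39429 matched a symbol), and a gene with several probes by the brightest. limma (version 3.58.1, R 4.3.3) was fitted over all 12 arrays with a mean per time. Benjamini-Hochberg adjustment was made over probes with signal above background in Cy3 and in Cy5 of every array compared, and adjusted p under 0.05 was called. Replicates are pools of 3 mice, precision is limited by the number of arrays, and whether control pools were shared between gavage times was not stated. Between 52% and 57% of spots were above background in both channels and no spot was saturated. All-probe medians of single arrays lay between -0.12 and 0.13.

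Named genes were the 9 members, up to 4 called genes per list and comparison, and Ppargc1a, Foxo1, Pck2, Mlxipl and Txnip. Some genes that this rule names are not reported here. Members and lists were chosen with earlier results of these data known. Replicate numbers were checked for pairing: deviations of same-numbered arrays correlated at 0.368 to 0.655 in 9 pairs within the gavage times and at -0.041 to 0.287 in 9 pairs with 14 days. In the control channel the gavage values were 0.322 to 0.671, and -0.296 to 0.176 in the treated channel. The gavage numbers were therefore taken to pair the arrays, the 14-day numbers were not, and the blocked fit, which gave all 12 arrays their number, is given where it changed a gavage call. Alternatives were channel totals (the methods normalize by total intensity), median centring, normexp with loess (offset 50), no filter, the value table, all probes of a gene, other blocks, the arrays of a comparison alone, the methods' t-test and leaving out each array. Centring on probes above background and the Cy5 channel alone were added after seeing the data, as was the balance without Pklr. The fit was tested on simulated data.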

Additional observations from a re-analysis of the deposited data

Results flagged for a closer look

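The ratios of some genes differed between times by the test of the difference in the fit. From 1 to 7 days of MgH2 the log2 ratio rose for Pck1 (0.48, adjusted p = 0.0332) and fell for Pklr (-1.24, 0.0132) and Pfkfb1 (-0.53, 0.0367). In the same contrast it was higher at 7 days for Tpi1 (0.24), Got1 (0.86) and Crtc2 (0.44) and lower for Gpd1 (-0.41), Gcgr (-0.19) and Mlxipl (-0.74, adjusted p = 0.0122). From 7 days of MgH2 to 14 days of H2-water it was lower for Pck1 (-0.71, adjusted p = 0.0133) and higher for Pklr (0.86, 0.0326), with agent, duration and slide changing together. Around the pathway it was then lower for Got1 (-0.86), Tat (-0.42) and Crtc2 (-0.43) and higher for Slc25a10 (0.36), Gpd1 (0.43), Cebpa (0.27), Mlxipl (0.81, adjusted p = 0.0103), Pgd (0.42) and Taldo1 (0.28). Both contrasts use the 7-day arrays, so a gene that stands out at 7 days appears in each. With 3 arrays per time, single arrays were not tested for lying apart.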

How the results depend on the processing

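Of 12 alternatives other than leaving out arrays, 11 called Pcx, Pklr and Pfkfb1 at 7 days, 10 called Pck1 at 7 days and Pklr and Pcx at 3 days, 9 called Pck1 at 14 days and 8 at 3 days. The cause of these differences was not tested, beyond fewer arrays or more probes in the fit.

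Of the 9 genes at 14 days, 0 were called with centring on all probes, with its arrays alone and by the methods' t-test after adjustment. Slide as a random block called 2, normexp 3, and the methods' t-test at its own threshold 3 (20.1% of all probes). The replicate block called 4 (13.7% of all probes), although replicate numbers were not found to pair the 14-day arrays with the others. Some counts of this paragraph stand without the share of all probes called in the same fit, and these cannot be set against the main fit. Nothing particular to the 9 genes is read from any of the counts given here. At 1 day normexp gave 1 (Fbp1, reversed to 0.21). At 3 days its arrays alone and the methods' t-test after adjustment gave 0, as did the latter at 7 days. From 1 to 3 days the Cy5 channel gave 1 (3.98% of all probes), and from 1 to 7 days no filter gave 0. From 7 to 14 days median centring and the replicate block gave 4 each (13.3% of all probes with the block). The block left the count within 1.5 times elsewhere. Without single arrays the counts were 2 to 3 at 7 days, 0 to 1 at 14 days, 1 to 2 from 1 to 7 days and 0 to 1 from 7 to 14 days. For the control pools quantile normalization gave 4. There Pck1, Slc37a4 and Pfkfb1 reversed with totals (0.0715, 0.39 and 0.11), and Pck1 and Slc37a4 with quantiles (0.15 and 0.38). The balance with Pklr and Pfkfb1 as the glucose-use side was 0.46 and 0.64 at 3 and 7 days, and without Pklr 0.0791 and 0.12.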
